A study of Mus musculus with 2 samples.

Results

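A set of 10 BMP and Smad pathway genes was followed in native RNA from mouse retinal organoids: the ligand genes Bmp4 and Bmp7, the receptor gene Bmpr1a, and Smad1 to Smad7. They were chosen by gene name, and a site was a position listed with at least 20 reads in replicate 2. By this rule the 10 genes held 29 of the 16212 sites of replicate 2, all in 3 genes: Smad4 with 11, Bmpr1a with 10 and Smad3 with 8. Of the 29 sites, 22 (75.9%) were also listed in replicate 1, at 7 to 15 reads, against 74.8% of all sites of replicate 2.

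The series consists of 2 libraries of poly(A) RNA from day 6 organoids of the wild-type mouse stem cell line Rx:GFP, which carries a fluorescent reporter of the eye-field gene Rx (Rax). Both were grown for 6 days with AGN at 0.1 µM and sequenced without copying, on 1 nanopore flow cell each, with the RNA002 chemistry. They form 1 group with n = 2, so no condition was compared with another. Nothing in the labels says whether the organoids came from separate cultures, so the spread between libraries may be technical.

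BMP ligands bind receptor kinases of type I and type II at the cell surface. The type I receptor, of which Bmpr1a is one, then phosphorylates Smad1 and Smad5, while activin and TGF-beta receptors act on Smad2 and Smad3. All of these join Smad4 and enter the nucleus to regulate transcription, and Smad6 and Smad7 inhibit the signal. Bmp4 and Bmp7 are known for their roles in the optic vesicle and lens of the mouse eye. N6-methyladenosine (m6A) is a methylated base that METTL3 and its partners place on mRNA in short sequence contexts, and it alters the ionic current when native RNA passes through a pore. The value studied is the fraction modified, between 0 and 1, that the authors gave for each listed position beside its coverage in reads. A fraction given below as over a number of reads is printed beside that coverage. The coverage is not the denominator of every fraction, and how many reads entered a fraction is not known.

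Every listed position lay on 1 of 4 motifs of 5 bases, written 5′ to 3′ in DNA letters. The motif GGACA held 11 of the 29 sites (37.9%), beside 35.6% of all sites of replicate 2. The motif AGACT held 10 sites (34.5%, beside 18.1% of all sites), the motif GGACT 6 (20.7%, beside 24.2%) and the motif GGACC 2 (6.90%, beside 22.1%). Longer sequence around the sites was not used here. Where 2 listed motifs lie close together their spacing is known. A stretch of Bmpr1a and one of Smad5 are shown to give the layout of such neighbours, and those of Smad3 and Smad4 are described below by position. Capitals mark the listed motifs and n marks bases that the tables do not give.
Bmpr1a, positions 909 and 927: GGACAnnnnnnnnnnnnnGGACC
Smad5, positions 5571 and 5580: GGACAnnnnGGACA

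The tissue label was set against marker genes. Among eye-field and retinal progenitor genes, Rax, Six3, Six6, Lhx2, Otx2 and Sfrp2 were listed in both libraries and had sites in replicate 2, led by Lhx2 with up to 261 reads. Pax6 was listed in both libraries with at most 17 reads. None of 4 pluripotency, 3 mesoderm or 3 endoderm genes was listed in either library. Of 4 photoreceptor and neuron genes Tubb3 was listed, and of 3 pigment epithelium genes Pmel in both libraries and Mitf in replicate 2, with at most 17 reads for any of these. A position needed 5 reads to be listed, so an unlisted gene is not shown to be silent. The libraries differed in depth, with 26441 listed positions in replicate 1 and 50099 in replicate 2, and a median coverage of 10 and 12 reads.

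By their listed coverage the 10 genes fell into 3 classes. Smad4, Bmpr1a and Smad3 passed 20 reads in replicate 2, with up to 55, 50 and 25 reads. By deepest position they stood at percentiles 80.6, 78.6 and 59.8 of the 8057 genes listed in replicate 2. Smad5, Smad2, Smad1, Bmp7 and Smad6 were listed below that minimum, with at most 15, 11, 10, 9 and 8 reads. Their percentiles were 41.9, 30.5, 26.8, 22.8 and 18.5. Bmp4 and Smad7 had no listed position in either library, so their coverage is not known. In replicate 1, 5 of the 10 genes were listed, and none exceeded 15 reads. In whole organoids, fewer cells that express a gene and less of its RNA per cell cannot be told apart.

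**Figure D1:**
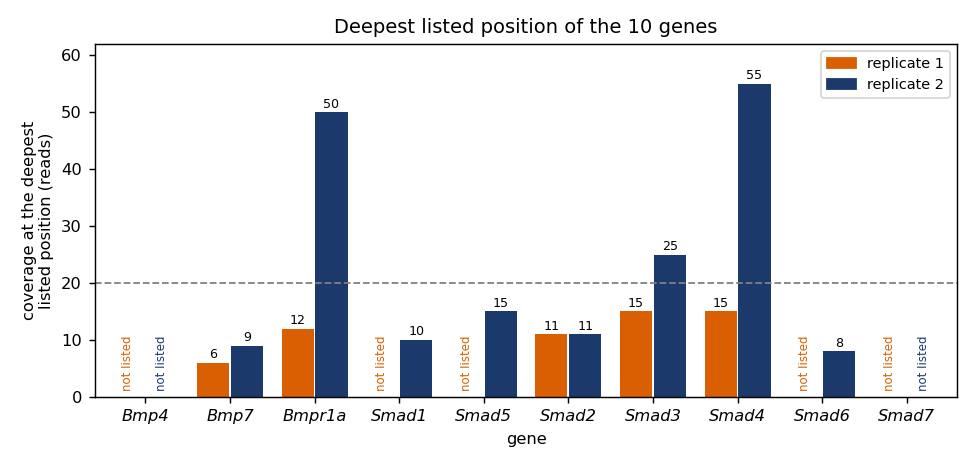
Coverage in reads at the deepest listed position of each of the 10 genes, with 1 bar per library and a dashed line at the minimum of 20 reads. Only Bmpr1a, Smad3 and Smad4 pass the line, and only in replicate 2, at 50, 25 and 55 reads.

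The gain in depth from replicate 1 to replicate 2 was uneven among these genes. Over 3912 genes with at least 2 positions in both libraries, the median of the gene's coverage ratio, replicate 2 over replicate 1, was 2.08 (interquartile range 1.65 to 2.67). Smad3 had a ratio of 1.83 and Smad4 one of 2.57, both within that range. Bmpr1a had 5.12, at percentile 99.0 of the genes, and its 5 shared positions ran from 4.17 to 5.86. At position 5141, the deepest that both list, the libraries had 12 and 50 reads, a ratio of 4.17 with an exact 95% interval of 2.19 to 8.60. Smad2 had a ratio of 1 at both shared positions, at percentile 2.48, with 11 reads in each library (exact 95% interval 0.393 to 2.54). These intervals cover counting error only. The interval of Bmpr1a lies above the median over genes and that of Smad2 includes it, but both genes were singled out after their ratios were seen.

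Coverage rose toward the 3′ end, where direct RNA reads begin. In Smad4 it rose from 25 reads at position 485 to 55 at position 3215 in replicate 2, and from 12 to 15 reads over its 10 positions in replicate 1. In Smad3 the rise was from 15 reads at position 1524 to 25 at position 4876 in replicate 2, and from 7 to 15 reads in replicate 1. Bmpr1a went from 28 reads at position 909 to 50 at position 5141 in replicate 2, with 1 drop to 39 reads at position 4254. Sites near the start of these transcripts were therefore covered by fewer reads than sites near the end, although how many of the covering reads entered a fraction is not given. The minimum of 20 fell inside Smad3: positions 2891 and 3081, with 20 reads each, were the shallowest sites, and position 2402, with 17 reads and a fraction of 0.333, lay just outside.

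**Figure D2:**
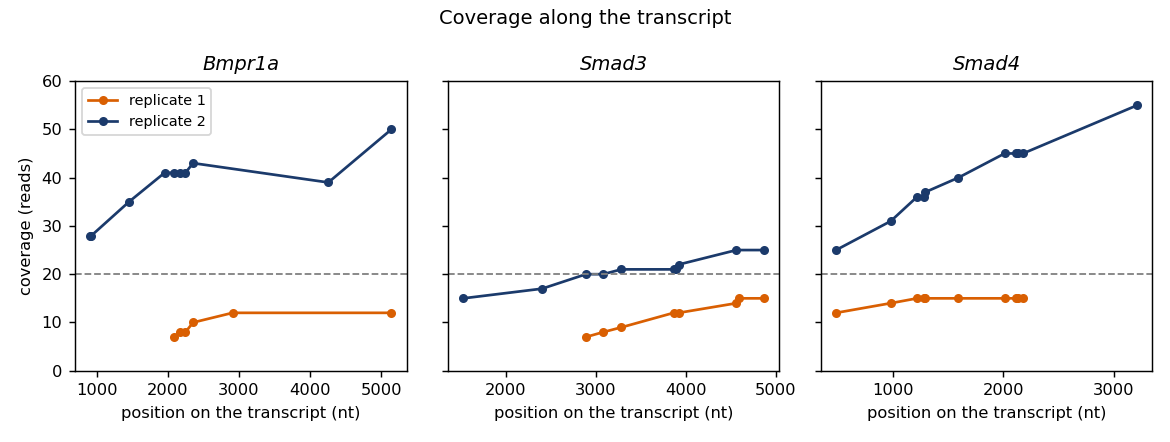
Coverage in reads at each listed position of Bmpr1a, Smad3 and Smad4 against position on the transcript in nt, with 1 line per library and a dashed line at 20 reads. Coverage climbs toward the 3′ end, and replicate 1 stays between 7 and 15 reads in all 3 genes.

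Bmpr1a encodes a type I receptor for BMP ligands. Its sites lay on transcript ENSMUST00000049005.14 (gene on chromosome 14, 34132691 to 34225298, as deposited, on a genome build that is not settled), and their fractions in replicate 2 ran from 0.0571 to 0.789 with a median of 0.223. Of the 10 sites, 4 were at 0.5 or more. The fraction was highest at position 4254, an AGACT with 0.789 over 39 reads, which replicate 1 did not list. The GGACA at position 909 had 0.714 over 28 reads, and the GGACC at position 927 had 0.125 over the same number. These 2 motifs are 18 nt apart, as printed above, and their fractions differed by 0.589 in replicate 2, with no value in replicate 1. The GGACT at position 1455 had 0.115 over 35 reads, and the GGACA at position 1954 had 0.118 over 41 reads. The latter is at percentile 7.19 among the 5773 GGACA sites of replicate 2.

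The other 5 sites of Bmpr1a had a value in both libraries. Among them, 3 neighbouring AGACT sites covered by 41 reads each in replicate 2 gave very different fractions. Position 2081 had 0.333 in replicate 1, over 7 reads, and 0.0571 in replicate 2. Position 2177 had 0.333 over 8 reads and 0.08. Position 2247 had 0.667 over 8 reads and 0.65. In both libraries position 2247 was the highest of the 3. In replicate 2 it was at percentile 87.9 of all AGACT sites, and positions 2081 and 2177 were at percentiles 10.1 and 14.9. In replicate 1 these 2 positions lay above the median of 0.25 over AGACT sites listed in both libraries. The GGACA at position 2354 had 0.333 over 10 reads and 0.32 over 43 reads. The GGACA at position 5141 had 0.75 over 12 reads and 0.659 over 50 reads. All 5 fractions were lower in replicate 2, and the gene's mean over these sites was 0.483 in replicate 1 and 0.353 in replicate 2, or 0.418 ± 0.0921 (SD, n = 2). Most of that spread comes from positions 2081 and 2177, where the libraries differed by 0.276 and 0.253.

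Smad3 encodes a transcription factor activated by TGF-beta and activin receptors. Its 8 sites lay on transcript ENSMUST00000034973.9 (chromosome 9, 63554049 to 63665276, as deposited). Their median in replicate 2 was 0.45, and 4 were at 0.5 or more. High fractions were found at 2 sites near the 3′ end of the listed stretch. The GGACA at position 4565 had 0.923 over 14 reads and 0.947 over 25 reads, replicate 1 being given first here and below. The GGACT at position 4876 had 0.846 over 15 reads and 0.913 over 25 reads, which is percentile 96.6 among the 3920 GGACT sites of replicate 2. Between these, position 4592 was listed in replicate 1 alone, with 0.875 over 15 reads.

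The remaining Smad3 sites were lower, and they ranged from nearly equal to clearly unlike between libraries. The AGACT at position 3866 had 0.3 over 12 reads and 0.294 over 21 reads. The AGACT at position 3922 had 0.429 over 12 reads and 0.2 over 22 reads. Between them, 29 and 27 nt away, the GGACA at position 3895 was listed only in replicate 2, with 0.364 over 21 reads. At 3 further sites replicate 1 had fewer than 10 reads. Position 2891 (AGACT) had 0.75 over 7 reads and 0.5 over 20 reads. Position 3081 (GGACT) had 0.2 over 8 reads and 0.4 over 20 reads. Position 3285 (GGACA) had 0.429 over 9 reads and 0.714 over 21 reads, a difference of 0.286 and the widest among the 22 sites with a value in both libraries. Because differences ran in both directions, the gene's mean over 7 sites was alike in the libraries, at 0.56 ± 0.00932 (SD, n = 2).

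Smad4 encodes the partner shared by the BMP and TGF-beta branches. It had 11 sites on transcript ENSMUST00000025393.13 (chromosome 18, 73772080 to 73836851, as deposited), and 10 of them had a value in both libraries. Its mean fraction over those 10 was 0.515 in replicate 1 and 0.488 in replicate 2, or 0.501 ± 0.0191 (SD, n = 2). The 4 GGACA sites spanned a wide range. Position 981 had 1 over 14 reads and 0.917 over 31 reads, the highest of the gene. Position 1594 had 0.933 over 15 reads and 0.871 over 40 reads. Position 1218 had 0.5 over 15 reads and 0.6 over 36 reads, and position 485 had 0.375 over 12 reads and 0.308 over 25 reads. In both libraries positions 981 and 1594 lay above positions 1218 and 485, so these 4 sites of 1 motif kept their order.

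The 3 GGACT sites of Smad4 were as unequal. Position 1282 had 0.714 over 15 reads and 0.7 over 36 reads. Position 1294, 12 nt downstream, had 0.333 over 15 reads and 0.37 over 37 reads. Position 2179 had 0 over 15 reads and 0.0625 over 45 reads. The gap between positions 1282 and 1294 was 0.381 in replicate 1 and 0.33 in replicate 2, while neither site differed by more than 0.0371 between libraries. With 2 libraries the exact paired permutation test used here cannot give a p below 0.5, so it cannot call such a gap significant.

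Downstream in Smad4 lay 3 further sites, covered by 15 reads in replicate 1 and 45 reads in replicate 2. The AGACT at position 2012 had 0.444 and 0.5. The GGACC at position 2117 had 0.182 and 0.121. The AGACT at position 2132, 15 nt downstream of it, had 0.667 and 0.429, and this difference of 0.238 was the only one above 0.2 in the gene. The neighbours at 2117 and 2132 differed in the same direction in both libraries, by 0.485 and 0.307. The deepest site of the 10 genes was the AGACT at position 3215, with 0.5 over 55 reads in replicate 2. Replicate 1 did not list it.

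**Figure D3:**
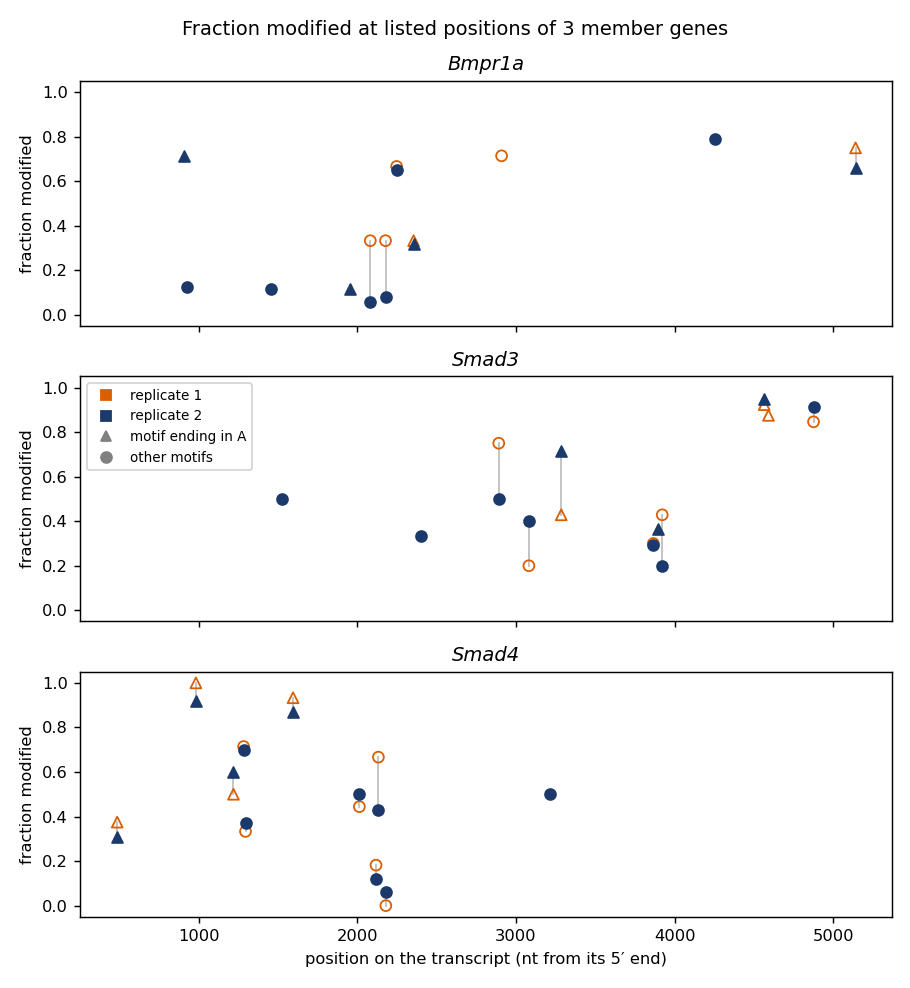
Fraction modified at each listed position of Bmpr1a, Smad3 and Smad4 against position on the transcript in nt, with open symbols for replicate 1 and filled ones for replicate 2, triangles for the motif ending in A, and grey lines joining the 2 values of a position. Each transcript holds both high and low fractions, and in Smad4 most joined symbols lie close together.

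Agreement between the libraries was measured at the 22 sites listed in both. The median absolute difference was 0.067 and the root mean square difference 0.148. Across all sites of the tables whose replicate 1 coverage lay in the same range of 7 to 15 reads, the root mean square difference was 0.182 over 4779 sites. Differences above 0.2 were found at 6 of 22 sites (27.3%, 95% Wilson interval 13.2% to 48.2%), where the background at this coverage was 23.5%, and 15.7% over all sites listed in both libraries. The members' share over the 22 sites is thus near that of sites of like depth. By coverage class it lay above the background in the lower class and below it in the upper, which was not tested. With 5 to 9 reads in replicate 1, 4 of 6 sites differed by more than 0.2 (background 29.8%). With 10 to 15 reads, 2 of 16 did (background 21.7%). The ranks of sites within a gene were related between libraries, with Spearman's rho of 0.952 over 10 sites of Smad4, 0.894 over 5 of Bmpr1a and 0.757 over 7 of Smad3. These shares, intervals and ranks are descriptions, since sites of 1 transcript share reads.

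**Figure D4:**
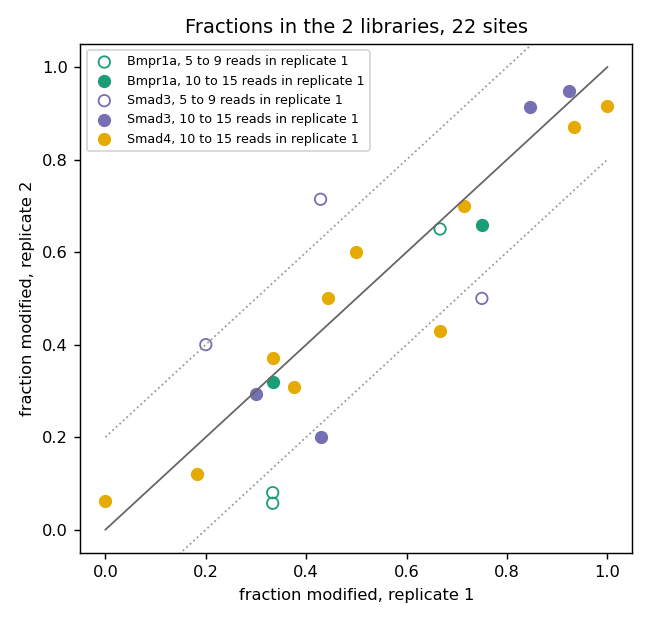
Fraction modified in replicate 2 against replicate 1 at the 22 sites with a value in both, coloured by gene, with open symbols for sites of 5 to 9 reads in replicate 1. The solid line marks equality and dotted lines a difference of 0.2, which 6 sites exceed, 4 of them open.

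The motifs were then compared within the members. Over the 22 sites the median fraction of the 8 GGACA sites exceeded that of the 14 sites on other motifs by 0.244 in replicate 1 and 0.301 in replicate 2, or 0.273 ± 0.0404 (SD, n = 2). Each of the 3 genes had the same direction in both libraries. The exact paired permutation test, two-sided, gave p = 0.5, its smallest value with 2 libraries. Over all 12121 sites listed in both libraries the gap was 0.451 ± 0.0146 (SD, n = 2). The members' GGACA sites had a median of 0.656 ± 0.0434 (SD, n = 2), against 0.695 ± 0.0229 for all. Their sites on other motifs had 0.383 ± 0.00301, against 0.244 ± 0.00827 for all (each SD, n = 2). The smaller gap of the members thus came mainly from higher values on the other motifs, a difference that was not tested.

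In replicate 2, 14 of the 29 sites (48.3%, 95% Wilson interval 31.4% to 65.6%) had a fraction of 0.5 or more, and the background over all sites was 37.5%. By motif this was 7 of 11 GGACA sites, where the background was 64.1%, and 7 of 18 sites on other motifs, where it was 22.8%. The interval of the latter share, 20.3% to 61.4%, includes its background. These intervals treat sites as separate draws, although sites of 1 transcript share reads, so no conclusion is drawn from them. Over all motifs 16 of the 29 sites lay above the median of all sites of their own motif, with 5 of 11 on GGACA and 11 of 18 on the other motifs. The latter were 5 of 7 in Smad4, 4 of 5 in Smad3 and 2 of 6 in Bmpr1a. Over both motif classes, the median percentile of a site within its own motif was 70.3 in Smad4, 62.5 in Smad3 and 28.8 in Bmpr1a. Bmpr1a thus held more of the low sites, although its highest, position 4254, was at percentile 94.8 of AGACT sites.

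**Figure D5:**
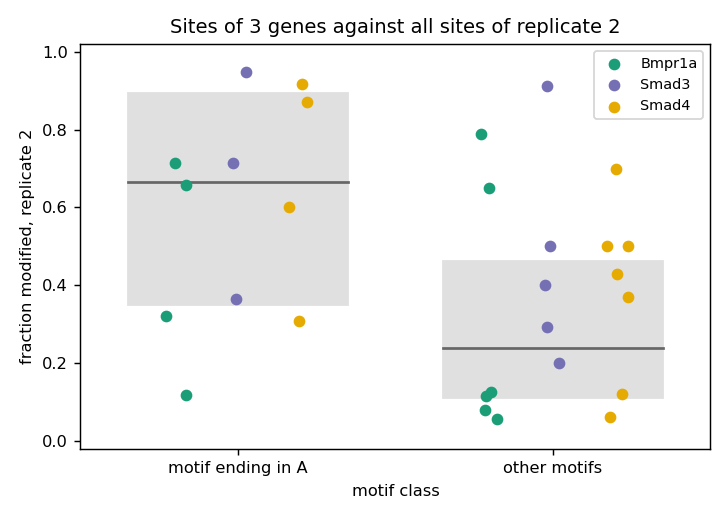
Fraction modified in replicate 2 at the 29 sites, by motif class and gene, 1 point per site, over the median (line) and interquartile range (grey box) of all sites of replicate 2. On the motif ending in A the sites have a median of 0.658 against 0.667 for all sites, and on the other motifs 0.385 against 0.238.

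The 5 genes below 20 reads are given as values only. Smad1 and Smad5 encode the Smads that BMP receptors activate, and both were listed in replicate 2 alone. Smad5 had 6 positions on transcript ENSMUST00000069557.13 at 7 to 15 reads. The GGACA motifs at positions 5571 and 5580, printed above, had 0.4 and 0.667, each over 15 reads. GGACA positions 3071 and 4832 had 1 over 7 and 10 reads, position 3957 had 0.6 and position 3685 had 0.2 over 7 reads each. Smad1 had 4 positions at 5 to 10 reads, with 1 at position 1906, 0 at positions 2076 and 2120, and 0.222 at position 2531. No order among these sites is read from values at such coverage.

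Smad2, the partner of Smad3 in TGF-beta and activin signalling, was the only member with more positions in the shallower library, 6 in replicate 1 against 2 in replicate 2. At the 2 positions listed in both, each with 11 reads in each library, the fractions were alike. Position 1869 had 0 in both, and position 1918 had 0.5 and 0.571. Position 2072 had 0.333 over 11 reads in replicate 1 and was not listed in replicate 2. Its other 3 positions had 6 or 7 reads. Smad6, an inhibitory Smad, had 4 positions in replicate 2, with 0 at positions 1452, 1605 and 2452 over 6 to 8 reads and 0.8 at position 2598 over 8 reads.

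Of the ligands, Bmp7 had 3 positions in replicate 2 and 2 in replicate 1. The GGACA at position 1761 had a fraction of 1 in both libraries, over 6 and 9 reads. Positions 550 and 618, also GGACA, had 1 over 6 reads each in replicate 2. Position 1057, a GGACC, had 0.2 over 6 reads in replicate 1.

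Listing itself differed between the libraries. Of the 32 positions of replicate 1, 25 (78.1%) were also in replicate 2, where the background was 70.9%. Of 57 different positions of the members, 25 were in both, 25 in replicate 2 alone and 7 in replicate 1 alone. Of these 7, 3 lay between positions that replicate 2 covered with at least as many reads: position 2909 of Bmpr1a (0.714 over 12 reads), position 4592 of Smad3 (0.875 over 15 reads) and position 1057 of Bmp7. Around position 2909 replicate 2 had 43 and 39 reads, and around position 4592 it had 25 on each side. In the same way, replicate 1 covered both sides of position 3895 of Smad3 with 12 reads and did not list it. Coverage of 5 reads nearby was therefore not enough for a position to be listed, and what else decided it is not stated.

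Other genes of the pathway were taken from a list of 54 ligands, receptors, antagonists, Smad regulators and targets. Of these 22 were listed in replicate 2 and 10 had a site. They held 53 sites in all, with a median fraction of 0.321, against 0.345 over all sites. The share of all genes that were listed or had a site is not given here. The counts by class, here and below, are therefore not read as high or low. Of 16 ligands, 2 were listed and none had a site. Gdf11 reached 19 reads and Tgfb2 9. Of 10 receptors 4 were listed and 2 had a site. Tgfbr1, a type I receptor for TGF-beta, had 3 sites averaging 0.455 ± 0.0403 (SD, n = 2), and Bmpr1b, another BMP type I receptor, had 2 sites of 20 reads in replicate 2. Of 10 secreted antagonists and the pseudoreceptor, Twsg1, which binds BMPs outside the cell, was the 1 gene with sites, at 0.642 over 3 sites in replicate 2 and 0.799 ± 0.0236 (SD, n = 2) over the 2 listed in both libraries.

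Of 12 intracellular regulators 9 were listed and 3 had a site. Ppm1a, a phosphatase that acts on Smads, had 7 sites averaging 0.355 ± 0.0146 (SD, n = 2) and ranging from 0.0323 to 0.983 in replicate 2. Smurf2, a ubiquitin ligase of the pathway, had 5 sites with a mean of 0.545 in replicate 2, and 0.375 ± 0.0268 (SD, n = 2) over the 3 listed in both libraries. Ski, a corepressor of Smads, had 4 sites with a mean of 0.431 in replicate 2, 1 of them listed in both libraries. Of the 6 targets the 4 Id genes carried all 29 sites, from 0.0317 to 1 with a median of 0.228. Id2 held 18 of them over 2 transcripts, where a position of the gene can be counted more than once, and this bears on the total of 53 and its median. Without them the list held 24 sites with a median of 0.442, beside 0.429 at the 29 sites of the members.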

How the data were processed

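Per the labels' protocols, each library was made from 1 µg of poly(A) RNA and run for 48 h or so. The authors deposited, for each library, positions on Ensembl transcripts with a 5-base motif, a fraction modified and a coverage, which is a whole-number read count of at least 5. Base caller, aligner, modification caller and the denominator of the fraction are not given in the sources used here. Of the 29 fractions of replicate 2, 4 were whole multiples of 1 over the coverage (within 0.0001), so no read counts or intervals were derived from the fractions and their reading depth is unknown. The submitters' processing notes name mm10, but the deposited start of none of the 8 listed members lay within 1000 bases of that in RefSeq GRCm38.p6. Over 8171 genes, 3.04% of starts did. The deposited gene coordinates thus do not match GRCm38.p6. They are given as deposited, and which build they belong to is unsettled.

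Positions were matched between libraries on transcript and end coordinate, printed as the 1-based position; the tables do not say to which base of the 5 it belongs. The plus tables were used, and the minus tables hold no member. Python 3.11.15, pandas 2.3.3 and SciPy 1.17.1 were used, with functions tested on simulated data. Members and lists were chosen with earlier results of these data known. Named were all members and, of the pathway list, the 8 genes with the most sites (ties by coverage), Id genes as a count; Bmpr1b, Gdf11, Tgfb2 and the pairs and ratios singled out above were chosen after their values were seen. No gene was named for a like pattern, since 1 group holds none to compare. Alternatives covered coverage minimums, thresholds, transcripts, weighting and each library. 1 marker gene is not reported here.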

Additional observations from a re-analysis of the deposited data

How the results depend on the processing

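The number of sites was 50 without a coverage minimum and 2 with 50 reads, against 29. With at least 20 reads in replicate 1 as well, 0 of the 22 sites listed in both libraries remained. Their median fraction, 0.45, became 0.472 without a minimum and also without the sites of Bmpr1a, and 0.704 with 50 reads, where 1 site of Bmpr1a was left and set that gene's mean to 0.704. The share of sites at 0.5 or more, 48.3%, was 69.0% at a threshold of 0.3, 27.6% at 0.7 and 100% with 50 reads. Differences above 0.2 fell from 27.3% to 12.5% of sites with at least 10 reads in replicate 1. Weighting by coverage moved the mean of Smad3 to 0.585. The other 30 alternative values stayed within the spread between libraries or their interval, kept their direction or, for counts, stayed within 1.5 times. Among the counts were 37 sites with a minimum of 10 reads, and 16 listed in both with at least 10 reads in replicate 1. Many of the 30 could not move. The median or mean of 1 library always lies within the SD of the 2. Each listed member had 1 transcript, so choosing 1 transcript per gene changed nothing. A minimum of 10 reads left the sites behind each gene's mean unchanged. The number 30 is thus no measure of stability. Using 1 library gave medians of 0.4365 and 0.464 and gaps for GGACA of 0.244 and 0.301; with n = 2 this says nothing about stability. No paired analysis was possible between groups because both samples belong to 1 group; the motif gap was paired within libraries. The gap for GGACA and the share of differences could not be computed with 50 reads or with 20 reads in replicate 1, respectively. Depth is 1 limit, as replicate 1 holds no more than 15 reads at any position of the 10 genes.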
